A study of Homo sapiens with 2 samples.

Results

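Galactosylceramide is made from ceramide by UGT8, a galactosyltransferase of the endoplasmic reticulum, and is turned into sulfatide when GAL3ST1 adds a sulfate group in the Golgi. Both lipids are best known from myelin, and both are broken down in lysosomes. There ARSA removes the sulfate and GALC removes the galactose, each with the help of a saposin cut from PSAP. The genes described are these 5, with 2 that shape the ceramide (FA2H and CERS2), the carrier of the sugar donor (SLC35A2), the activator of sulfatases (SUMF1) and a carrier of glycolipids (GLTP). They were named from the pathway, and every probe set annotated to 1 of them alone was read, which gave 33 probe sets for 10 of 18244 genes.

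The cells were MDA-MB-231, a triple-negative human breast cancer line with mesenchymal features. RNA of a clone whose UGT8 was stably knocked down was measured on 1 expression array, and RNA of the parental cells, used as control, on 1 other array. Both were grown in DMEM with 5.6 mmol/L glucose and harvested 48 h after passage, and total RNA (6 ug) was labelled with biotin. Because a single clone was set against the line it came from, what is particular to that clone and the loss of UGT8 cannot be told apart. The knockdown reagent is not given in the sources used here.

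Values are on the log2 scale, and a difference is the knockdown value minus the control value. With 1 array per group there is no replicate check and no test, and every difference describes these 2 arrays. An SD over probe sets of 1 gene tells how far its readings differ within these 2 arrays and does not stand for replicates. A gene was read by its brightest probe set, and a floor was set at the median, over all probe sets other than controls, of the mean of both arrays (log2 6.64), which 10439 genes and 8 of the 10 passed. A gene was counted at a difference of 1.5-fold (0.58 on the log2 scale).

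Both arrays had a median of 6.64. The median difference of all genes past the floor was 0.03. Control RNAs that were spiked in at hybridisation had a median difference of 0.51 (0.22 to 0.66 over 18 probe sets), so that every difference would be 0.51 lower if centred on them. The poly-A controls, another set of control RNAs, had a median difference of 0.08 (-0.16 to 0.40 over 24 probe sets). Centring on these would lower every difference by 0.08 only. RNA quality readings differed for ACTB, with a 3' minus 5' difference of 0.90 on the knockdown array against 0.49 on the control array, and were close for GAPDH (0.19 against 0.18). Their part in the results was not tested. As markers of the line, VIM (vimentin) read 13.9 on both arrays and AXL 12.2 on the knockdown array against 12.3 on the control array. The other listed mesenchymal and basal markers read lower on the knockdown array. EGFR had 9.39 against 9.92 (-0.53, or -0.24 over its 8 probe sets). CD44 differed by -0.28, MSN by -0.24 and CAV1 by -0.15. Of the hormone receptors, ESR1 (6.30 against 6.31) and PGR (3.45 against 3.37) lay below the floor. CDH1 (E-cadherin) passed it, at 7.66 on the knockdown array and 8.01 on the control array. ERBB2 (8.73 against 8.56), GATA3 (8.51 against 8.73) and KRT18 (12.0 against 11.9) also passed the floor.

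The stretches before the transcription starts of 4 of the genes are shown first, because these are the 3 genes that read lower by more than 1.5-fold and GLTP, the one with the highest difference. Each is the 250 bases upstream of the gene's outermost annotated start, 5' to 3' on the gene's own strand, from RefSeq on GRCh38.p14. The UGT8 stretch is chr4:114598152-114598401 on the plus strand. The others are on the minus strand, GAL3ST1 at chr22:30574666-30574915, GALC at chr14:87993668-87993917 and GLTP at chr12:109880542-109880791. Capitals mark the GC box (GGGCGG), the CCAAT box (CCAAT), the TATA box (TATAAA) and the E-box (CACGTG) on either strand, and neighbouring matches can overlap.
UGT8: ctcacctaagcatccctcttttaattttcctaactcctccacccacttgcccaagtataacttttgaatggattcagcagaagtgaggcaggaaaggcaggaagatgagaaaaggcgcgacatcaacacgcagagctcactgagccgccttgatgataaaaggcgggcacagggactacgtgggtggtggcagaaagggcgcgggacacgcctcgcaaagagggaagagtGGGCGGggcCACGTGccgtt
GAL3ST1: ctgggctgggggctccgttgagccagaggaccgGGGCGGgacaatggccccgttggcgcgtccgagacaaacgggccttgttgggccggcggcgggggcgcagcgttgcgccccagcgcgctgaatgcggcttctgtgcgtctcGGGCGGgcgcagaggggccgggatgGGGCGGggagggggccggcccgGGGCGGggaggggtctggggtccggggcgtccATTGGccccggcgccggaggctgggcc
GALC: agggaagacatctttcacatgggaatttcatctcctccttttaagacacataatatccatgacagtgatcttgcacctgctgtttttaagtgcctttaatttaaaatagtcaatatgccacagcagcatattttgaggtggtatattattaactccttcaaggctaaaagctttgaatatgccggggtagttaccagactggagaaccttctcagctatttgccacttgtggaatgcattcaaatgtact
GLTP: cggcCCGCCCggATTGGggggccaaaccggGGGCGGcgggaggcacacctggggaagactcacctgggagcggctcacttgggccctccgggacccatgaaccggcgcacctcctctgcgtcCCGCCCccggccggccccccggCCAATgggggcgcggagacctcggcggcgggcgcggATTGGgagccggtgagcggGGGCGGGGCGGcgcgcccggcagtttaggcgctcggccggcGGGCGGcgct

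The UGT8 stretch held 1 GC box, beginning 20 bases before the start, and 1 E-box, beginning 11 bases before it. GAL3ST1 had 4 GC boxes and 1 CCAAT box, and GLTP had 6 GC boxes and 3 CCAAT boxes. None of the 4 motifs was found in the GALC stretch, whose GC content was 38.4%, against 54.8% for UGT8, 78.4% for GAL3ST1, 79.6% for GLTP and a median of 58% over all 34943 promoters. GALC has 4 annotated starts, and the stretch before another of them held 2 GC boxes at a GC content of 78%. UGT8 and GAL3ST1 have 3 annotated starts each. The other UGT8 stretches held GC boxes but no E-box. The other GAL3ST1 stretches held no GC box, at GC contents of 58% and 56.8%. The GC box was present in 42.5% of all promoters, the CCAAT box in 32.0%, the TATA box in 10.8% and the E-box in 6.32%. Of the 7 genes with a promoter entry, the outermost stretch held a GC box in 5, a CCAAT box in 4 and an E-box in 2 (UGT8 and SUMF1), and a TATA box in none. Entries for ARSA, PSAP and CERS2 were not used here. Which start the cells used was not measured.

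UGT8, the targeted gene, read lower on the knockdown array in all 3 of its probe sets. The brightest had 6.61 on the knockdown array against 8.95 on the control array, a difference of -2.34 that left 19.7% of the control signal. Another had 4.79 against 7.06 (-2.27, 20.7% of control), and the remaining one had 5.78 against 7.47 (-1.68, 31.2% of control). The knockdown readings all lay below the floor and the control readings all above it. The mean over these readings was -2.10 ± 0.36 (SD over 3 probe sets). The array's 23 background probe sets averaged 4.73 on both arrays but ranged from 2.76 to 11.2. The lowest UGT8 reading (4.79) was near their mean. Whether background limits the size of its difference was not tested. Among the 10439 genes past the floor, the brightest UGT8 reading had the third lowest difference.

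**Figure D1:**
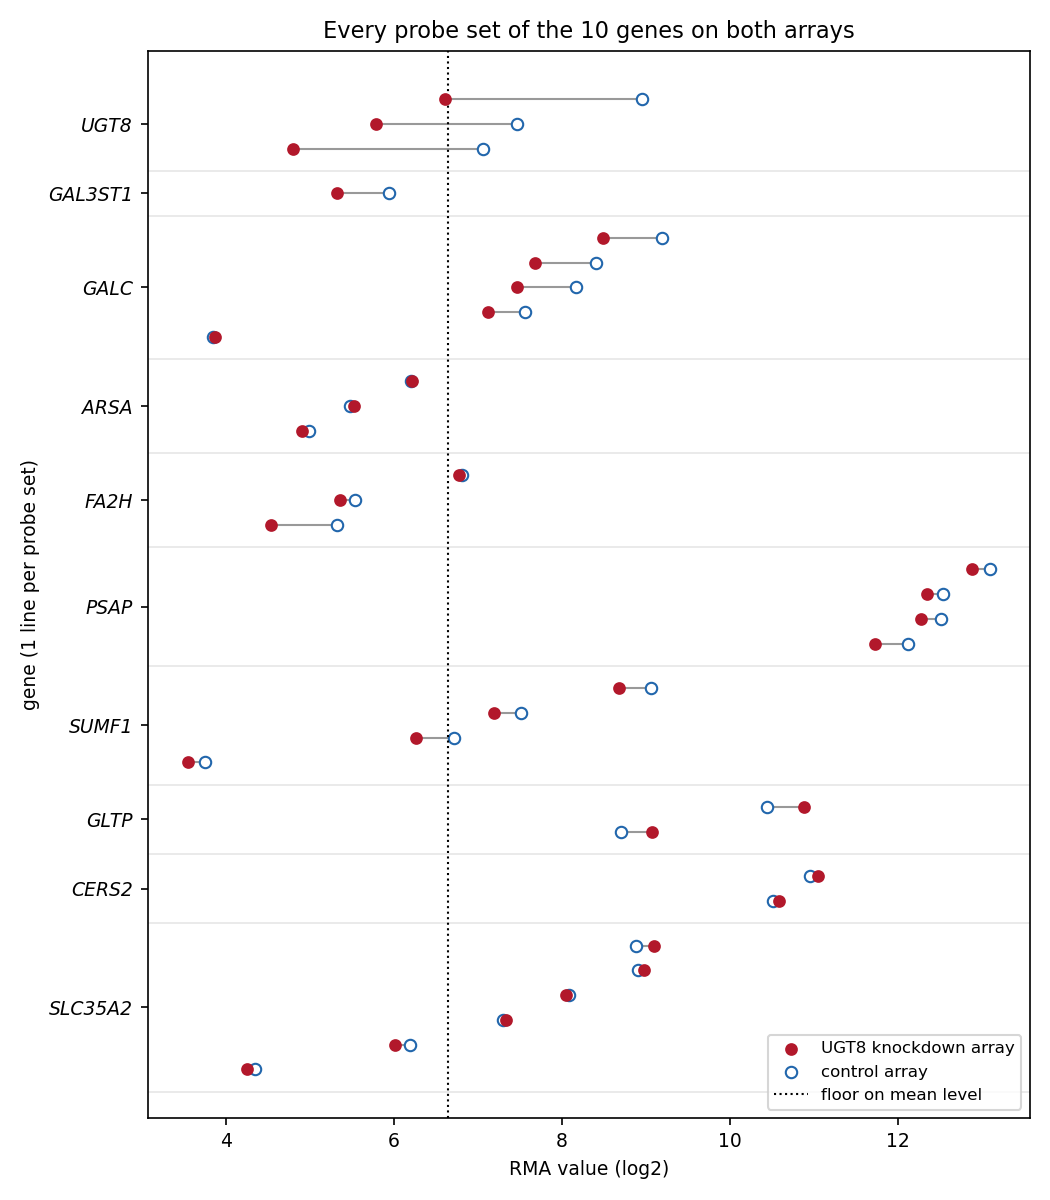
Each line joins the readings of 1 probe set on the UGT8 knockdown array (filled red) and on the control array (open blue), as RMA log2 values, grouped by gene with the brightest probe set on top; the dotted line is the floor (6.64). UGT8 has the longest lines (-1.68 to -2.34), 4 of the 5 GALC probe sets are shifted to lower values, and both GLTP probe sets are shifted to higher values.

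Among the other genes of synthesis, GAL3ST1, the cerebroside sulfotransferase, was the one past 1.5-fold by its brightest probe set. Its single probe set had 5.32 on the knockdown array against 5.94 on the control array (-0.62, 65.2% of control), with both readings below the floor, and no second probe set checks it. FA2H, which puts the 2-hydroxyl group on the fatty acids of galactosylceramide, gave readings that did not match each other. The brightest FA2H probe set had 6.77 against 6.81 (-0.04), the next 5.36 against 5.53 (-0.17), and the dimmest, marked for possible cross-hybridisation, 4.54 against 5.32 (-0.78). The FA2H mean was -0.33 ± 0.40 (SD over 3 probe sets), a spread wider than the mean, and only the brightest passed the floor.

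CERS2, the ceramide synthase that uses very long acyl chains, differed little. Its probe sets had 11.1 on the knockdown array against 11.0 on the control array (0.10) and 10.6 against 10.5 (0.08). SLC35A2, which carries UDP-galactose into the Golgi, was read by 6 probe sets, 3 higher and 3 lower, with differences between -0.18 and 0.22. The brightest SLC35A2 probe set had 9.09 against 8.88 (0.22), and the mean over all 6 was 0.0004 ± 0.14 (SD). Centred on the hybridisation controls, CERS2 (-0.41) and SLC35A2 (-0.30) turned below 0, while on the poly-A controls they stayed above it (0.03 and 0.14).

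In the breakdown arm, GALC, the lysosomal galactosylceramidase, read lower in all 4 probe sets past the floor. From bright to dim these had 8.49 on the knockdown array against 9.20 on the control array (-0.70), 7.68 against 8.40 (-0.72), 7.47 against 8.16 (-0.70) and 7.12 against 7.56 (-0.45). The knockdown reading was the lower one in each of these, and the mean of the 4 was -0.64 ± 0.13 (SD over probe sets). The remaining probe set was dim on both arrays, at 3.87 against 3.84 (0.03). With it included, the GALC mean was -0.51 ± 0.32 (SD over 5 probe sets), within 1.5-fold. By the brightest probe set GALC had 61.4% of the control signal, and 4.67% of genes past the floor had differences below its own.

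ARSA, the arylsulfatase that acts on sulfatide, showed no shift of one sign. Its brightest probe set had 6.21 on the knockdown array against 6.20 on the control array (0.01). The other ARSA probe sets had 5.52 against 5.48 (0.04) and 4.91 against 4.99 (-0.08). All lay below the floor, and the mean was -0.01 ± 0.07 (SD over 3 probe sets). Centred on the hybridisation controls, ARSA differed by -0.50, and on the poly-A controls by -0.06.

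PSAP, the precursor of the saposins, was slightly lower in all 4 of its probe sets. The brightest had 12.9 on the knockdown array against 13.1 on the control array (-0.21), and the others differed by -0.19, -0.24 and -0.39. The last of these was the one not marked for cross-hybridisation, with 11.7 against 12.1. The PSAP mean was -0.26 ± 0.09 (SD over 4 probe sets), and 24.3% of genes past the floor had differences lower than that of its brightest probe set.

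SUMF1, which makes the formylglycine residue that sulfatases such as ARSA need for activity, was also lower in 4 of 4 probe sets. It had 8.68 on the knockdown array against 9.06 on the control array (-0.38), 7.19 against 7.51 (-0.32), 6.26 against 6.71 (-0.45) and, dim on both, 3.54 against 3.75 (-0.21). The mean was -0.34 ± 0.10 (SD over 4 probe sets), short of 1.5-fold in each. The gene SETMAR, which overlaps SUMF1 in the annotation, differed the other way (6.86 against 6.23, 0.64, or 0.33 over its 2 probe sets), below the floor on mean level.

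GLTP, a cytosolic protein that moves glycolipids between membranes, had the highest difference of the 10. Its probe sets had 10.9 on the knockdown array against 10.4 on the control array (0.45) and 9.08 against 8.70 (0.38), a mean of 0.41 ± 0.05 (SD over 2 probe sets). A higher difference was found for 9.74% of genes past the floor. GLTP stayed short of 1.5-fold, and centred on the hybridisation controls it turned to -0.07. Centred on the poly-A controls GLTP differed by 0.37.

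Counted together, 2 of the 8 genes past the floor were at least 1.5-fold lower, UGT8 and GALC, and none was higher, where 6.74% of all genes past the floor were lower and 4.96% higher. Without the targeted gene the count was 1 of 7. At 2-fold UGT8 alone was counted, against 1.54% of all genes past the floor. With no floor GAL3ST1 joined, which made 3 of 10, against 4.39% of all genes. By single probe sets, 8 of 33 were at least 1.5-fold lower, where 4.59% of all probe sets were. These were 3 of UGT8, 3 of GALC, and those of GAL3ST1 and FA2H named above, and 4 of the 8 lay below the floor. Without UGT8 the count was 5 of 30 probe sets. Probe sets of the same gene are not separate genes. The median difference over the 10 genes was -0.12, and without UGT8 it was -0.04, beside 0.03 for all genes past the floor. The 4 breakdown genes had a median of -0.29, and the 4 synthesis genes other than UGT8 one of 0.03. These medians rest on the brightest probe sets and include ARSA and GAL3ST1, both below the floor. Averaged over all probe sets the 2 groups overlapped. The synthesis genes were GAL3ST1 -0.62, FA2H -0.33, SLC35A2 0.0004 and CERS2 0.09. The breakdown genes were GALC -0.51, SUMF1 -0.34, PSAP -0.26 and ARSA -0.01. UGT8 minus GALC, the nearest of the others, was -1.64 on the log2 scale, and UGT8 minus GAL3ST1 was -1.73.

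**Figure D2:**
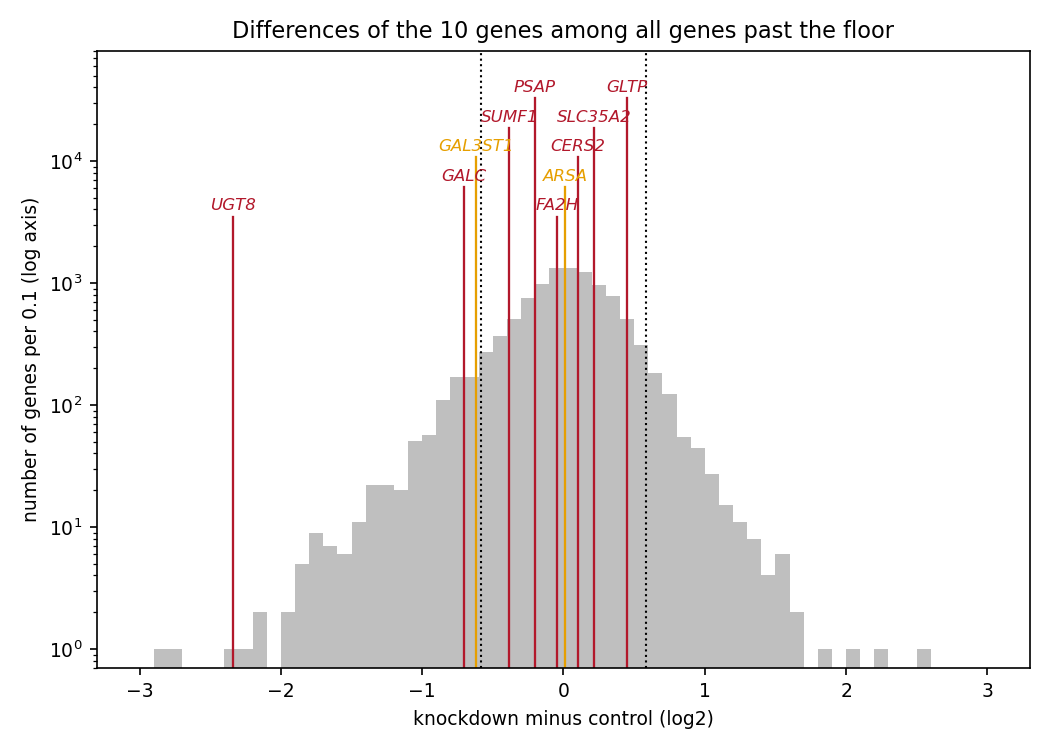
Grey bars count all 10439 genes past the floor by difference, knockdown minus control on the log2 scale, on a logarithmic axis; vertical lines mark the 10 genes by their brightest probe set (red past the floor, orange below it) and dotted lines mark 1.5-fold. UGT8 (-2.34) lies in the far lower tail, GALC (-0.70) and GAL3ST1 (-0.62) lie just past the lower dotted line, and the other 7 lie between the dotted lines.

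The rest of the pathway was read through 11 lists of genes around these enzymes, of which 57 genes lay past the floor. Of these 57, 2 were at least 1.5-fold lower and 2 higher, against 6.74% and 4.96% of all genes, and their median was -0.13. The genes past 1.5-fold were UGCG and CTSD, lower, and PAPSS2 and CPTP, higher. UGCG, the glucosylceramide synthase that competes with UGT8 for ceramide, had 11.1 on the knockdown array against 12.0 on the control array (-0.88). This was its single probe set, so no second one checks it. B4GALT6, a lactosylceramide synthase, differed by -0.52 (-0.32 over its 5 probe sets), and the other 3 genes of the glucosylceramide branch lay between -0.02 and 0.09.

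Of the donor supply, none of 7 genes of UDP-galactose supply reached 1.5-fold (median -0.05), with PGM2, a phosphosugar mutase, highest at 9.91 against 9.49 (0.42, or -0.10 when centred on the hybridisation controls). Of 6 genes listed around the sulfate donor PAPS, not all of which supply it, PAPSS2, a PAPS synthase, was 1.73-fold higher. It had 9.72 on the knockdown array against 8.93 on the control array (0.79), and its probe sets ranged from 0.59 to 0.85. Centred on the hybridisation controls, PAPSS2 differed by 0.28. Its paralog PAPSS1 differed by -0.25 (10.1 against 10.4). The PAPS transporter gene SLC35B3 differed by -0.39 (-0.20 averaged over its 3 probe sets), BPNT1 by 0.39 (0.25 over 5), the sulfate transporter gene SLC26A2 by 0.36 and SLC35B2 by 0.0060, and the list median was 0.18. Among the paralogs of GAL3ST1, GAL3ST4 alone passed the floor, with 7.36 on both arrays.

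None of the 8 genes of ceramide synthesis and transport past the floor reached 1.5-fold. All 8 had differences below 0, as did 45.8% of all genes past the floor, between CERS4 (8.26 against 8.52, -0.26) and DEGS1 (-0.09), with a median of -0.13. These values rest on the brightest probe set of each gene, and CERT1, SPTLC1 and SPTLC2 averaged above 0 over all their probe sets (0.04, 0.02 and 0.0079), and CERS6 averaged -0.0040. The 7 genes of very long chain fatty acid elongation had a median of 0.04, with ELOVL6 lowest (9.31 against 9.69, -0.38).

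None of the 9 genes past the floor in the list of sulfatases, the enzymes that SUMF1 activates, and SUMF2 reached 1.5-fold. Differences were below 0 for 8 of the 9, against 45.8% of all genes past the floor, with a median of -0.24. By the brightest probe set ARSJ came nearest to 1.5-fold, with 8.02 on the knockdown array against 8.58 on the control array (-0.56), but it averaged -0.29 over its 4 probe sets. ARSK differed by -0.45 by either reading, and ARSL was the one above 0 (0.18, or -0.33 when centred on the hybridisation controls). The 4 ARSL probe sets ranged from 0.18 to 0.73, with a mean of 0.42. ARSB and STS were nearer 0 when averaged over their probe sets (-0.07 and -0.03). Lysosomal genes of glycosphingolipid breakdown had a median of -0.17 over 10 genes. CTSD, the protease cathepsin D, was lowest at 9.84 against 10.4 (-0.61), and averaged -0.58 over its 3 probe sets, just short of 1.5-fold. HEXA, a subunit of hexosaminidase, followed at -0.54 by its brightest probe set and averaged -0.19 over 8. ASAH1 differed by -0.45 and averaged -0.50 over 5, while GLA differed by 0.13 and averaged 0.42 over 3. GM2A, the activator protein of hexosaminidase, was highest at 0.46 (-0.05 when centred on the hybridisation controls).

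Of the proteins related to GLTP, CPTP, which moves ceramide-1-phosphate, was 1.63-fold higher in its single probe set, with 8.81 on the knockdown array against 8.10 on the control array (0.71, or 0.20 when centred on the hybridisation controls). PLEKHA8, which carries glucosylceramide, differed by -0.21 (-0.08 over its 4 probe sets). None of the 12 other UDP-glycosyltransferases measured passed the floor, and their differences lay between -0.23 and 0.16. Among proteins that bind or present sulfatide or galactosylceramide, THBS1 (thrombospondin, 12.3 against 12.7, -0.36) and the galectin gene LGALS3 (-0.34, 1 probe set) passed the floor, while all CD1 genes measured lay below it. The 5 THBS1 probe sets ranged from -0.79 to 0.13, with a mean of -0.47.

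**Figure D3:**
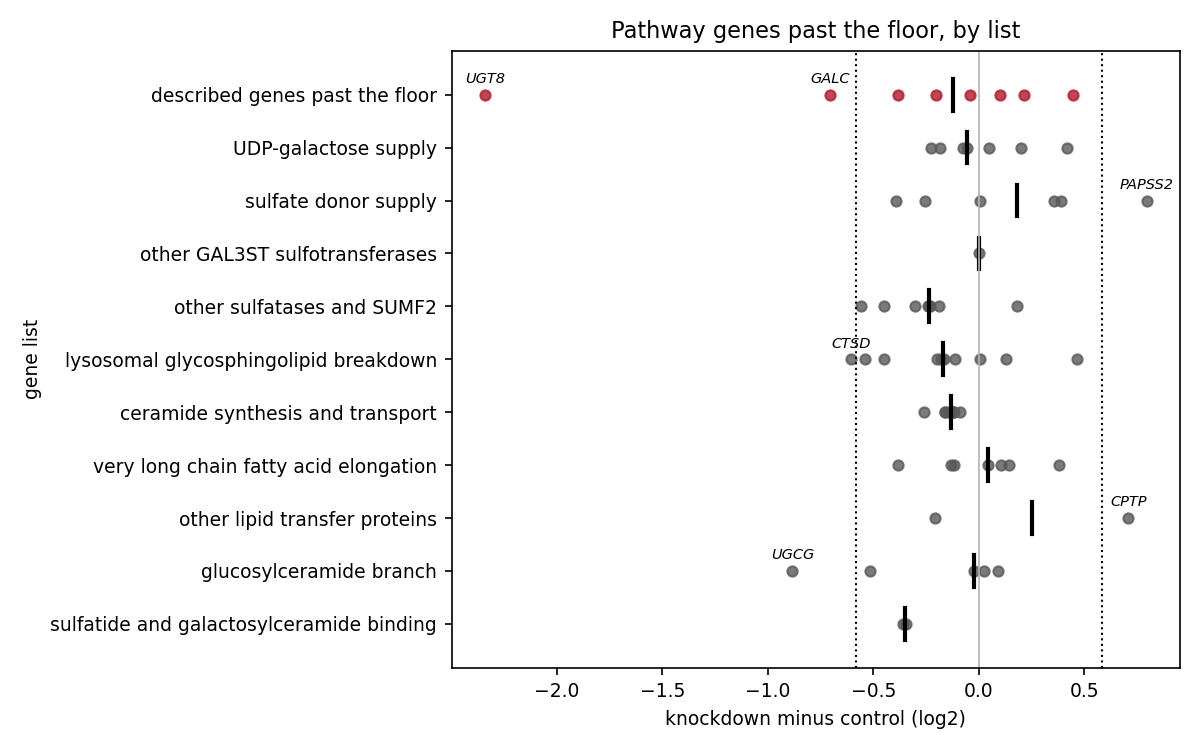
Points are the differences (knockdown minus control, log2) of genes past the floor, 1 row per list, with the 8 described genes on top in red, black bars at each median and dotted lines at 1.5-fold. Apart from UGT8 and GALC, the genes beyond a dotted line are UGCG and CTSD (lower) and PAPSS2 and CPTP (higher), and the 8 ceramide synthesis genes all lie between -0.26 and -0.09.

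Oligodendrocytes are the cells best known for these lipids, and most of their markers were dim on both arrays. Of 9 measured, MBP (9.93 against 10.5, -0.59, or -0.33 over its 7 probe sets, within 1.5-fold) and CNP (11.3 against 10.9, 0.45, or -0.07 when centred on the hybridisation controls) passed the floor, while MOG, MAG, MOBP, CLDN11, OLIG1, OLIG2 and SOX10 did not. The summed linear signal of the 9 was 3798 on the knockdown array against 3601 on the control array. Of the leukocyte markers 2 of 5 passed the floor, CD14 (6.77 against 7.50, -0.73) and CD68 (0.13), with sums of 898 against 911. Of the endothelial markers PECAM1 (7.37 against 8.46, -1.09) and KDR (-0.36, or -0.16 over its 2 probe sets) passed out of 5, with sums of 392 against 614. Their part in the differences of the 10 genes was not tested.

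On the chromosomes, 20 of the 21 genes that adjoin or overlap the 10 were measured, and the 13 that passed the floor had a median difference of 0.09. Of these, ITPR1 beside SUMF1 was at least 1.5-fold lower (-0.66) and TCHP beside GLTP at least 1.5-fold higher (0.69, 0.56 over its 4 probe sets, or 0.18 when centred on the hybridisation controls). That is 1 of 13 each way, where 6.74% of all genes past the floor were lower and 4.96% higher. The neighbours of UGT8 on chromosome 4 are the sulfatase gene ARSJ, given above, and NDST4, which was dim on both arrays (4.18 against 4.13). Those of GALC on chromosome 14 were FLRT2 (-0.25, or -0.10 over its 3 probe sets) and, below the floor on mean level, GPR65 (5.50 against 4.25, 1.25).

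Among all genes past the floor, the 5 whose difference lay nearest that of UGT8 were CFB, VCAM1, ITGB8, SLCO4C1 and CYTIP. CFB, complement factor B, had 8.40 on the knockdown array against 10.6 on the control array (-2.22). VCAM1, an adhesion molecule, had 7.62 against 9.79 (-2.18) and ITGB8, an integrin subunit, 6.45 against 8.56 (-2.11). SLCO4C1, an organic anion transporter, had 5.45 against 8.16 (-2.71) and CYTIP 7.99 against 9.95 (-1.96). Likeness here is the distance between differences of the brightest probe sets on 1 pair of arrays, at most 0.39. Averaged over all probe sets, ITGB8 had -0.89 (4 probe sets), CFB -1.77 (4), CYTIP -1.87 (2), SLCO4C1 -2.04 (2) and VCAM1 -2.10 (2). The knockdown readings of ITGB8 and SLCO4C1 lay below the floor.

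**Figure D4:**
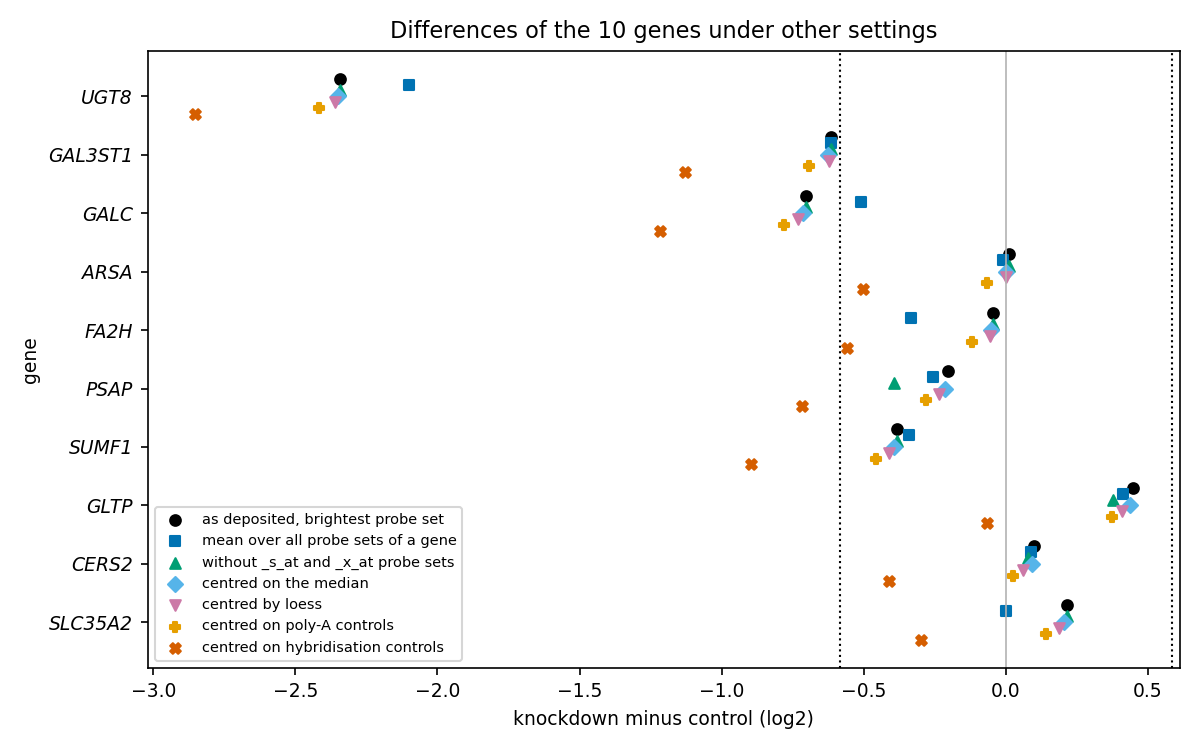
Each row shows the difference of 1 gene (knockdown minus control, log2) under the deposited scale with the brightest probe set (black) and 6 other settings (coloured), with dotted lines at 1.5-fold. UGT8 stays between -2.85 and -2.10, GALC lies within 1.5-fold when all its probe sets are averaged (-0.51), and centring on the hybridisation controls (orange-red crosses) moves every gene by -0.51, which puts GLTP, CERS2, SLC35A2 and ARSA below 0.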

How the data were processed

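Expression was measured on Affymetrix arrays, 1 of cells with UGT8 knockdown and 1 of parental control cells, with groups taken from the genotype labels. The authors deposited log2 values made with RMA, according to the labels and per the submitters' processing notes. This method corrects background, normalizes between arrays and summarises probes, so a shift common to most transcripts is removed. No version or genome build is given in the sources used here, and scanner files were not used. The number of arrays limits the precision.

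Of 49495 probe sets, 45278 that named 1 gene in the platform annotation were used, with symbols updated through RefSeq (GRCh38.p14), and 102 controls, 1333 with several genes and 2782 with none were left out. Differences, counts and lists were computed with pandas 2.3.3, and loess curves with statsmodels 0.14.6. Counting was tested on simulated data, with 2-fold differences planted in genes well above the floor. That check does not cover differences near 1.5-fold or genes near the floor. No test was run, since each group holds 1 array. The genes named were all probe sets of the 10 genes, up to 4 genes past 1.5-fold per list (otherwise the 1 with the largest difference) and the 5 nearest to UGT8. Some list members, neighbours and markers were added once their values had been seen, where a small count needed names. All genes and lists were chosen with earlier results of these data known. Of 136 genes in 16 lists, 122 had a probe set used here. Alternatives changed the probe set, floor, fold and scale.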

Additional observations from a re-analysis of the deposited data

How the results depend on the processing

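UGT8 was lower under all 8 alternatives run for it. Its difference was -2.85 when centred on the hybridisation controls and -1.68 in its highest single probe set. The median over the 10 genes was -0.64 with that centring, -0.29 with the mean over probe sets, -0.42 and -0.0087 with the lowest and the highest single probe set of each gene, and -0.21 without probe sets marked for cross-hybridisation (_s_at and _x_at). The count of genes at least 1.5-fold lower was 2 as reported. It was 4 when centred on the hybridisation controls, which adds PSAP and SUMF1, where 37.1% of all genes past the floor were lower. It was 1 with the mean over probe sets (UGT8), 1 at a 2-fold threshold (UGT8), 1 (GALC) where the floor is the 75th percentile, above UGT8, and 0 with the highest single probe set, where UGT8 lies below the floor. The count of genes at least 1.5-fold higher was 0 under all 12 alternatives. GALC reversed to 0.027 in its highest single probe set, the dim one. Centring on the median, by loess (fraction 0.3) or on the poly-A controls kept both counts. The UGT8 readings on the knockdown array and all readings of GAL3ST1 and ARSA lay below the floor. Whether this limits the size of their differences was not tested.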

Other observations

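Small differences recurred across unrelated probe sets, mostly among dim ones. Of the probe sets other than controls, 1744 had exactly the same value on both arrays. A further 9679 had a difference whose size, to 6 decimals, was shared by at least 10 probe sets, and the commonest such size (0.0797) occurred in 68. With the probe sets split by mean level into 5 equal bins, 57.8% of the dimmest bin shared their size in this way and 8.78% were exactly equal, against 0.273% and 0.213% of the brightest bin. Of the 33 probe sets of the 10 genes, 4 had such a shared size, and they belonged to ARSA, SUMF1 and SLC35A2. Those of UGT8, GAL3ST1 and GALC had none.

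The share of probe sets past 1.5-fold also depended on level. It was 0.941% in the dimmest bin (mean level up to 4.45), 5.57% in the next, 10.6% in the middle one, 12.9% in the one above it and 10.5% in the brightest. The dim GALC probe set and the dim SUMF1 probe set lie in the dimmest bin. GAL3ST1 and the FA2H probe set that differed by -0.78 lie in the next.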
